A study of Mus musculus with 6 samples.

Results

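The vomeronasal type 2 receptor genes (Vmn2r) were followed in a map of replication timing of cultured mouse myeloid cells. They were taken as the autosomal protein-coding genes of the mm10 RefSeq annotation whose symbol is Vmn2r followed by a number, which gave 122 of 20665 autosomal protein-coding genes. Each gene took the values of the window nearest to its midpoint, within 50 kb. Vmn2r121 on the X chromosome and Vmn2r-ps130, which the annotation lists as protein-coding, fell outside this definition.

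Vmn2r genes encode class C G protein-coupled receptors with a large extracellular domain that binds peptides and proteins. They are transcribed in sensory neurons of the basal layer of the vomeronasal organ, which signal through the G protein subunit Gαo and the channel TRPC2 and respond to pheromones and to cues from predators and other mice. The genes lie in clusters of similar copies mixed with pseudogenes, and they have no known role in blood cells. Genes that a cell type does not use often lie in DNA that it copies late in S phase.

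The series held 3 samples of the genotype Recql4-/- Klhdc3-/- and 3 WT samples, all of genomic DNA. Recql4 encodes a RecQ helicase that acts in the start of DNA replication, and the product of Klhdc3 picks substrates for CUL2 ubiquitin ligases. Both genotypes were HoxB8-immortalised myeloid cells that had been selected in GM-CSF, a myeloid growth factor, and were collected while proliferating. The sources used here do not say if the replicates of a genotype were separate lines or cultures. Timing was derived from the depth of whole-genome sequencing, since DNA copied early is present in more copies than DNA copied late in a growing culture. The cells divided every 15 to 18 hours with over 25% in S phase, and libraries of 150-bp paired reads aimed at 30-fold coverage. No RNA was measured, so transcription of the receptors was not seen.

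The 6 columns of values had no names and could not be tied to a genotype. They are called profiles A to F here, and no mutant was set against WT. Quantities are given for each profile, or as a median over profiles with or without its range. The smoothed timing score was scaled so that the autosomal windows of a profile average 0 with SD 1. The raw copy level, with autosomal medians of 1.96 to 1.98, rose by 0.125 to 0.161 per unit of score, so a higher score stood for earlier replication. Single windows scattered around that line with an SD of 0.121 to 0.127. Chromosome 19 carried no value and chromosome 12 none in profiles D and E, but neither holds a Vmn2r gene. The depth behind a window is unknown, and no counting error is given.

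The promoter sequences below show how alike the receptor genes can be and how few CG dinucleotides they hold. Of the 122 genes, 115 had a 300-base RefSeq promoter (GRCm38.p6), running from 250 bases before to 50 bases after the start of the gene. The first pair comes from the cluster on chromosome 7 in which most genes had no score. Vmn2r34 (chr7:7689349-7689648, minus strand) and Vmn2r32 (chr7:7479924-7480223, minus strand) differed at 16 of 300 positions, which are in capitals, written 5′ to 3′.
Vmn2r34: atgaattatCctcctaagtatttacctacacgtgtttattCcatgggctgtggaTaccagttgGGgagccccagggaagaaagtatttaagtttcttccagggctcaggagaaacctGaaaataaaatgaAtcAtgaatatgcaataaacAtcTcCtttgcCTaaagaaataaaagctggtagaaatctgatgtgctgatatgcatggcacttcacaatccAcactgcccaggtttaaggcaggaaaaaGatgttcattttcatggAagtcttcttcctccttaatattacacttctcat
Vmn2r32: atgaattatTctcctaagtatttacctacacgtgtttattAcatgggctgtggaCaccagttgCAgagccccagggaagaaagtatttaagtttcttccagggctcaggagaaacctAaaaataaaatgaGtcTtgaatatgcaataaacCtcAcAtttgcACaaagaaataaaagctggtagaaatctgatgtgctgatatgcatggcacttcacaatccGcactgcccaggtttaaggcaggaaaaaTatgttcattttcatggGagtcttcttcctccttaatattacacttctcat
The promoter of Vmn2r45 (chr7:8488910-8489209, minus strand) differed from that of Vmn2r34 at 0 of 300 positions, and that of Vmn2r49 (chr7:9992090-9992389, minus strand) from that of Vmn2r32 likewise at 0. Vmn2r31 and Vmn2r33, and Vmn2r62 and Vmn2r126, were also identical over this stretch.

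The second set shows the promoters of the gene with the lowest score, Vmn2r75, the one with the highest, Vmn2r8, and Vmn2r29, which has the highest CG count among the members. CG dinucleotides are in capitals. They lie at chr7:86171675-86171974, chr5:108808705-108809004 and chr7:7278240-7278539, each on the minus strand.
Vmn2r75: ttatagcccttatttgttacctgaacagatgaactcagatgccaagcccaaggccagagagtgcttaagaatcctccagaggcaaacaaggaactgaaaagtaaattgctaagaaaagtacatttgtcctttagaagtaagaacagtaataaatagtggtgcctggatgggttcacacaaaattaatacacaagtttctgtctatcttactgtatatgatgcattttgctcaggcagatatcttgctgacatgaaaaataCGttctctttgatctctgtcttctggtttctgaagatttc
Vmn2r8: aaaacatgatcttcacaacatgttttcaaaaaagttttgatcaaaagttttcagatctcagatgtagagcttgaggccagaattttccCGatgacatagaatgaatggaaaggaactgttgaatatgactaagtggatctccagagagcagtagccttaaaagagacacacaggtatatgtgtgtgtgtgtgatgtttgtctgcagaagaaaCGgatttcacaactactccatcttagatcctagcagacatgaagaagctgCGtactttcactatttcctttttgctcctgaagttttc
Vmn2r29: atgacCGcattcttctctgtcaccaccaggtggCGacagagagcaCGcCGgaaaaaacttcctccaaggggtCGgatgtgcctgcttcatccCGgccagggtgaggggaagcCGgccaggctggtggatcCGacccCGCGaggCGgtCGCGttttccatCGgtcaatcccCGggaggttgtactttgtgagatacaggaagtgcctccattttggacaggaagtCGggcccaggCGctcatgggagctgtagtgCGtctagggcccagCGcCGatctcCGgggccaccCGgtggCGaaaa
Vmn2r75 held 1 CG, Vmn2r8 held 3 and Vmn2r29 held 23. The earliest and the latest member therefore had similar promoters in this respect, at 38.3% GC for Vmn2r8 and 37.7% for Vmn2r75, against 62.3% for Vmn2r29. Over the 115 promoters the median was 1 CG and 38.0% GC, against 14 CG and 57.0% GC over 16342 promoters of other autosomal protein-coding genes. No CG at all was present in 32 of the Vmn2r promoters (27.8%), against 4.79% of the others. The letters TATAAA, searched on both strands, were present in 27 Vmn2r promoters (23.5%), against 13.5% of the others. TATAAA holds neither C nor G, and the Vmn2r promoters hold less GC, so this difference was not separated from that in base composition.

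Vmn2r genes lay in late replicating DNA in all 6 profiles, with exceptions at some clusters. Of the 122 genes, 103 had a score, each from a different window. Their median score was -0.72, -0.76, -0.86, -0.62, -0.71 and -0.69 in profiles A to F, against 0.87, 0.85, 0.82, 0.78, 0.81 and 0.70 for all 18307 scored autosomal genes. In each profile the receptor genes thus stood well below genes at large. Below 0 in every profile were 78 of the 103 (75.7%), where the background over all genes was 15.5%. Above 0 in every profile were 13 (12.6%), where the background was 76.2%, and the other 12 lay on both sides of 0. By median score, 62 of the 103 (60.2%) fell among the latest 10% of genes, where the background is 10% by construction.

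By its median over the profiles, no scored Vmn2r gene reached the median of all genes. In single profiles Vmn2r8, Vmn2r118 and Vmn2r120 exceeded it in D, and Vmn2r8 in E. The highest by median, Vmn2r8 on chromosome 5, scored 0.77, 0.74, 0.59, 0.92, 0.82 and 0.70 in profiles A to F, at percentile 46.4 of all genes by its median of 0.75. The lowest by median, Vmn2r75 on chromosome 7, scored -1.89, -1.89, -1.82, -1.99, -1.95 and -1.95, at percentile 0.09. In single profiles other members could lie outside these values, such as Vmn2r118 and Vmn2r120 above Vmn2r8 in D and Vmn2r49 below Vmn2r75 in B.

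**Figure D1:**
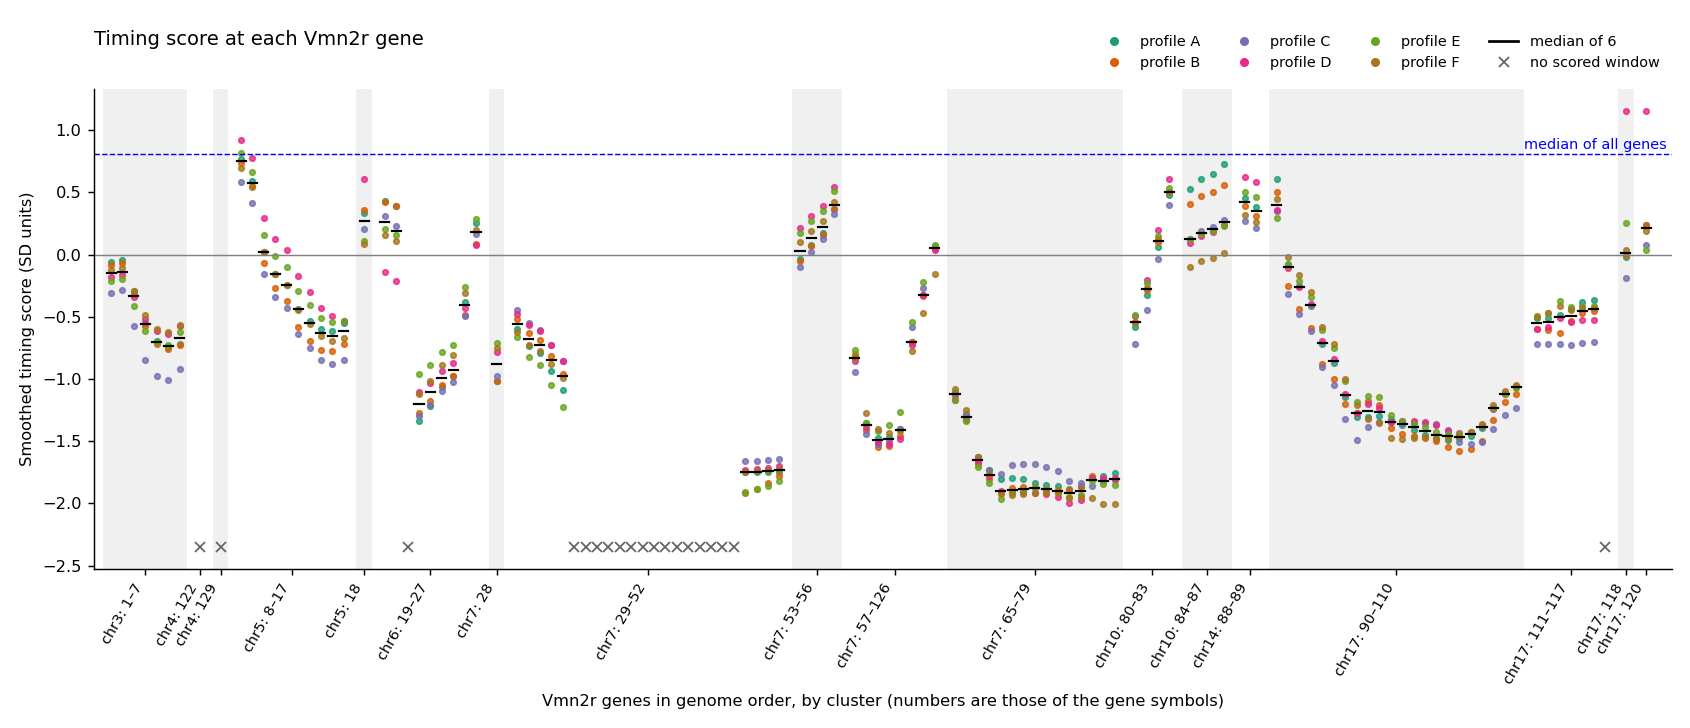
Smoothed timing score (SD units, vertical axis) of each Vmn2r gene in genome order, grouped by cluster. Points are the 6 profiles, bars their median, crosses the 19 genes with no scored window, and the dashed line the median of all genes, which no Vmn2r median reached.

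The order of the members was similar in the 6 profiles. Pearson's r between profiles over the 103 genes had a median of 0.977 (0.957 to 0.995) over 15 pairs, as a description across neighbouring genes that are not independent. The number below 0 was 82, 83, 84, 80, 80 and 84 in profiles A to F. The share of all genes below 0 in a single profile was not worked out. It is bounded by the 15.5% below 0 in every profile and the 76.2% above 0 in every profile. A gene's scores ranged over 0.25 units among the profiles by the median, from 0.08 to 1.35. The range was at least 0.5 in 9 genes (8.74%), against a background of 8.4%.

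These 9 genes lay on 4 chromosomes. Vmn2r118 and Vmn2r120, lone genes of chromosome 17, had the widest ranges and were high in profile D. Vmn2r84 to Vmn2r87 on chromosome 10 ranged over 0.63 to 0.71 units, Vmn2r19 and Vmn2r20 on chromosome 6 over 0.57 and 0.61, and Vmn2r18 on chromosome 5 over 0.52. Without profile D, 4 genes were left at 0.5 or more, namely Vmn2r84 to Vmn2r87. Without profile F also 4 were left, but different ones, namely Vmn2r19, Vmn2r20, Vmn2r118 and Vmn2r120. The wide range of each of the 9 genes thus rested on profile D or on profile F.

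Joining genes at most 1 Mb apart by their annotated positions gave 18 clusters on 8 chromosomes. Of these, 12 held more than 1 gene and 6 were lone genes. Chromosome 7 held 52 genes and chromosome 17 held 31. Scores were available for 16 clusters. The mean over the members' windows was below 0 in every profile in 8 clusters, above 0 in every profile in 4 and mixed in 4. The large clusters of chromosomes 7 and 17 were late, and the clusters of up to 4 genes and the lone genes had means between -0.05 and 0.38, except Vmn2r28 at -0.88.

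Vmn2r65 to Vmn2r79 on chromosome 7 (84940169 to 87037968) was the latest cluster. Its 15 genes, all scored, had a mean of -1.72, -1.76, -1.68, -1.79, -1.79 and -1.81 in profiles A to F. By median the members ran from Vmn2r65, at the lower edge of the cluster, at -1.12 to Vmn2r75 at -1.92. The score was 0.27 over the 1 Mb before the cluster and -1.29 over the 1 Mb after it, so low scores went on beyond its upper end. Where the late stretch began was not located. Within the span lay 16 other protein-coding genes, 15 of them olfactory receptor genes with a median of -1.86, and the other Folh1, glutamate carboxypeptidase II, at -1.80.

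Vmn2r90 to Vmn2r110 on chromosome 17 (17703941 to 20596259) held 22 genes, all scored. Its mean was -1.05, -1.12, -1.15, -1.03, -1.005 and -1.03 in profiles A to F. Vmn2r90, the first gene, scored 0.61, 0.50, 0.35, 0.35, 0.30 and 0.45, but its own window stood at -0.15 on the raw level rescaled to the same mean and SD. Vmn2r105, near the other end, scored -1.48, -1.58, -1.51, -1.43, -1.45 and -1.46. On the smoothed score the largest step between neighbours was -0.50, from Vmn2r90 to Vmn2r124 over 343 kb. The formyl peptide receptor genes, which sense bacterial peptides in myeloid cells or, for some, serve as vomeronasal receptors, lie in the same span. The 6 such genes in the span had medians of 0.23 for Fpr1, 0.22 for Fpr2, 0.09 for Fpr3, -0.0091 for Fpr-rs4, -1.46 for Fpr-rs7 and -1.47 for Fpr-rs6.

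Vmn2r57 to Vmn2r126 on chromosome 7 (41399732 to 43048106) had a mean of -0.96 (-0.97 to -0.86 over the profiles). Its 8 genes spanned from Vmn2r59 at -1.49 to Vmn2r126 at 0.05, and the score after the cluster was 0.59. The largest step, 0.71, lay between Vmn2r61 and Vmn2r62, which are 499 kb apart. Zinc finger genes shared its late stretch, with Zfp788 at -1.05 and Zfp141 at -1.16.

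Vmn2r29 to Vmn2r52 on chromosome 7 (7212996 to 10176286) had a mean of -1.24, -1.23, -1.09, -1.12, -1.35 and -1.22 in profiles A to F, but over 9 of its 24 genes. Vmn2r29 at the lower edge had a median of -0.56 and Vmn2r49 near the upper edge -1.75. The scored members lay at both ends, and the middle of the cluster is described with the unscored genes. Vmn2r28, a lone gene before it, scored -1.01, -1.02, -0.97, -0.79, -0.71 and -0.75.

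Vmn2r1 to Vmn2r7 on chromosome 3 (64078172 to 64719602) encode the receptors that are found together with other Vmn2r proteins in most neurons of the basal layer. Their mean was -0.44, -0.46, -0.70, -0.43, -0.50 and -0.40 in profiles A to F, lowest in C. By median the genes scored -0.15, -0.14, -0.33, -0.56, -0.70, -0.73 and -0.67 in order from Vmn2r1 to Vmn2r7. All 7 were below 0 in every profile, in a fall of 0.93 units per Mb along the chromosome, although Vmn2r2 stood at 0.62 on the rescaled raw level, and neighbours such as Vmn2r1 and Vmn2r2 differed by less than their range over profiles. In every profile their mean was higher than those of Vmn2r29 to Vmn2r52, Vmn2r57 to Vmn2r126, Vmn2r65 to Vmn2r79 and Vmn2r90 to Vmn2r110, but not than that of Vmn2r111 to Vmn2r117, which was higher in profile E.

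Vmn2r8 to Vmn2r17 on chromosome 5 (108797193 to 109453387) ran down a slope. The score fell in 8 of 9 steps between neighbours, at -2.15 units per Mb from Vmn2r8 to Vmn2r17. Vmn2r16 was the latest at -0.61, -0.78, -0.88, -0.49, -0.55 and -0.69 in profiles A to F, against the values of Vmn2r8 given above. The mean of the cluster was -0.18, -0.30, -0.39, 0.02, -0.08 and -0.22, near 0 because it averages over that slope. The flank before the cluster scored 1.47 and that after it 0.58. Vmn2r18, a lone gene further along, scored 0.34, 0.35, 0.20, 0.60, 0.10 and 0.08.

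Vmn2r80 to Vmn2r83 on chromosome 10 rose along the chromosome by 3.39 units per Mb, with Vmn2r80 at -0.54 and Vmn2r83 at 0.50 by median. Its flank scored 0.12 before and 1.41 after it. Vmn2r84 to Vmn2r87, at the far end of the same chromosome, had a mean of 0.63, 0.48, 0.20, 0.17, 0.18 and -0.04 in profiles A to F. Profiles A and B were high there and F was low. The raw level at Vmn2r84 was likewise highest in A and B and lowest in F, with 2.28, 2.29, 2.18, 2.15, 2.17 and 2.14. So was the mean over the 4 genes, at 2.19 in A, 2.16 in B and 2.04 in F. Single genes could differ: at Vmn2r85, F at 2.07 was second to A at 2.15, and B stood at 1.98. Vmn2r87 was the earliest of these 4 genes at 0.26 and Vmn2r84 the latest at 0.12, a smaller spread than that between the profiles.

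Vmn2r53 to Vmn2r56 on chromosome 7 was above 0 in every profile, with a mean of 0.15, 0.13, 0.09, 0.36, 0.32 and 0.24. Vmn2r53 was its latest gene at 0.03, with profiles A, B and C below 0, and Vmn2r56 its earliest at 0.39. The flank before it scored -0.88 and that after it 0.25. This small cluster lay 2.41 Mb beyond the late cluster Vmn2r29 to Vmn2r52 on the same chromosome.

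Vmn2r111 to Vmn2r117 on chromosome 17 (22547941 to 23479597) includes Vmn2r116, the receptor for the male tear pheromone ESP1. Vmn2r116 scored -0.37, -0.46, -0.70, -0.52, -0.42 and -0.43 in profiles A to F, but 0.37 by median on the rescaled raw level of its window. It was the earliest of 6 scored genes and Vmn2r111 the latest at -0.55 by median, so the members differed by 0.11, less than the range of Vmn2r116 over the profiles. The flank after the cluster scored 1.2. On chromosome 6, Vmn2r26, a receptor for peptide ligands of MHC molecules, scored -0.38, -0.49, -0.49, -0.43, -0.26 and -0.31.

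**Figure D2:**
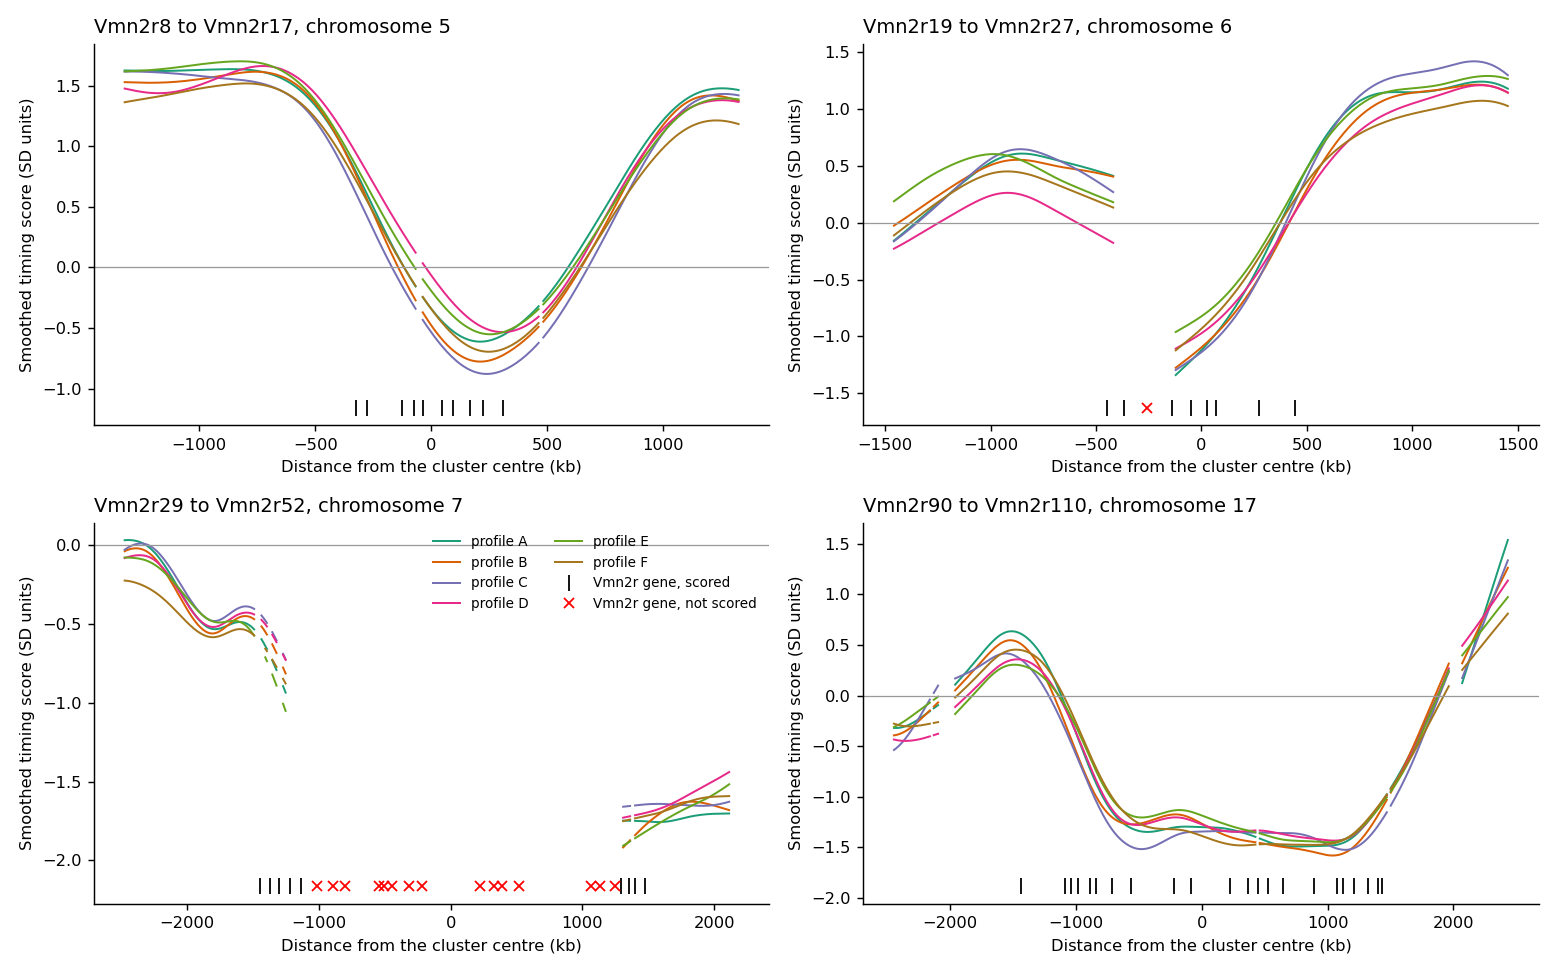
Smoothed timing score (SD units) against distance from the cluster centre (kb) at 4 clusters with 1 Mb on each side, as 1 line per profile. Ticks mark scored and crosses unscored Vmn2r genes, and lines break where windows carry no score. Vmn2r8 to Vmn2r17 lie on a slope, and the clusters of chromosomes 6 and 7 hold stretches without a score.

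The score changed abruptly across a stretch without values in Vmn2r19 to Vmn2r27 on chromosome 6 (123308333 to 124231784). Between 123390189 and 123642335, over 252 kb, 2 long windows carried no value. The midpoints of Vmn2r20, Vmn2r21 and Vmn2r22 lie inside this stretch. Before it, in the window taken for Vmn2r20, the score was 0.39, 0.39, 0.23, -0.21, 0.16 and 0.11 in profiles A to F. After it, in the window taken for Vmn2r22, the score was -1.34, -1.28, -1.30, -1.11, -0.96 and -1.12. The groups of values did not overlap, and this step of -1.39 was the largest between neighbouring scored genes in any cluster. The raw level changed less: over the 5 valued windows on each side it was 1.99 before and 1.91 after by the median of the profiles. The window taken for Vmn2r22, 17911 bp from its midpoint, stood at 2.00, or 0.19 when rescaled like the score. Vmn2r19 at 0.26 was the earliest member and Vmn2r27 at the other end stood at 0.18, so the latest scores of the cluster lay just beyond the missing stretch and the score then rose again.

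Vmn2r118 and Vmn2r120 stood apart in profile D. Vmn2r118 scored -0.02, -0.0049, -0.19, 1.16, 0.25 and 0.04 in profiles A to F. Vmn2r120, 1.88 Mb further along chromosome 17, scored 0.24, 0.23, 0.07, 1.15, 0.04 and 0.19. Profile D was the highest at both. The raw level at Vmn2r118 was 1.76, 1.87, 1.75, 1.95, 1.70 and 1.70, and at Vmn2r120 it was 1.90, 1.93, 1.93, 1.99, 1.93 and 1.84, again highest in D. Chromosome 17 beyond 40 Mb as a whole had a mean score of 0.83 in D and between -0.29 and -0.13 in the others, with a median raw level of 2.07 in D and 1.93 to 1.97 in the others. Before 40 Mb, where the other 28 scored genes of that chromosome lie, its mean was 0.33 in D and 0.21 to 0.33 in the others. Without D, the range of Vmn2r118 was 0.44 and that of Vmn2r120 was 0.20. On the rescaled raw level the medians were -1.21 for Vmn2r118 and -0.28 for Vmn2r120.

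Raw levels of most clusters lay near the line of raw level on score, and Vmn2r88 and Vmn2r89 on chromosome 14 (51411001 to 51461293) lay farthest above it. Vmn2r88, a receptor reported to detect haemoglobin, had raw levels of 2.52, 2.51, 2.34, 2.39, 2.43 and 2.47 in profiles A to F. Vmn2r89 had 2.38, 2.43, 2.40, 2.39, 2.38 and 2.42. Their mean score of 0.38 (0.24 to 0.60) corresponds to 2.03 on the line. The excess, 0.42 and 0.37 by median, exceeded the scatter of single windows in every profile. It was local: the windows on either side of the one at Vmn2r88 stood at 1.71 and 2.03 by median, and a window between the genes stood at 1.00, with 0.997, 1.09, 1.08, 0.981, 1.00 and 0.996 in A to F. Levels far below the line thus lay beside those far above it.

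Over the 103 genes, raw levels lay -0.01 from the line by median, from -0.22 at Vmn2r118 to 0.42 at Vmn2r88, and 54 genes lay below it. Of the clusters with several members, Vmn2r80 to Vmn2r83 stood 0.12 above the line and Vmn2r29 to Vmn2r52 stood 0.06 below it.

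**Figure D3:**
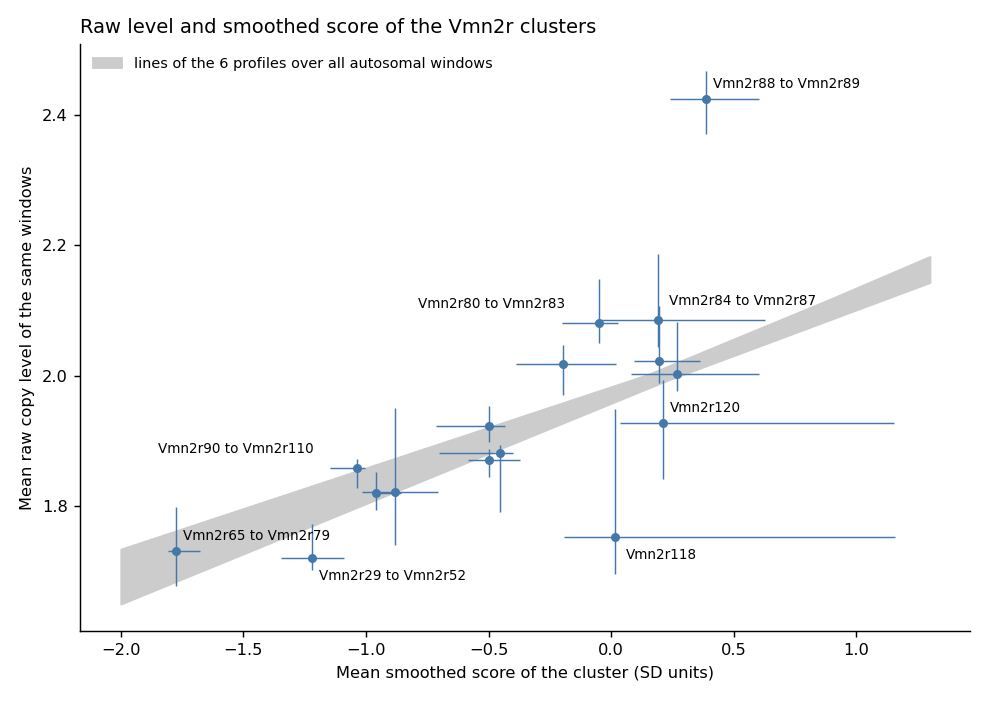
Mean raw copy level against mean smoothed score (SD units) of the 16 scored Vmn2r clusters. Points are medians over the 6 profiles, bars their full range, and the grey band the straight lines of the profiles over all autosomal windows: Vmn2r88 to Vmn2r89 lie above it, and Vmn2r118 below it.

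Vmn2r genes lacked a timing score more often than genes at large. No scored window lay within 50 kb of 19 of the 122 (15.6%), against a background of 3.22% of 19960 genes of chromosomes 1 to 18. They were Vmn2r34 to Vmn2r48 and, elsewhere, Vmn2r21, Vmn2r117, Vmn2r122 and Vmn2r129. The raw table gave values to 2 of them only, Vmn2r43 with a median of 1.49 and Vmn2r44 with 1.69. The annotation used here puts Vmn2r122 at 3536 to 11935 on chromosome 4, before the first window at 3050001. None of the 24 other genes in its 1-Mb flanks was scored either, and its position was not checked. Vmn2r129 is annotated from 156331103 to 156339499, beyond the last valued window of chromosome 4 at 156216568. At the distance limit, Vmn2r33 took a window 43666 bp away, while Vmn2r117 at 51900 bp and Vmn2r48 at 62665 bp had none. Most scored genes lay close to their window, 88 of 103 within 10 kb, with a median distance of 3151 bp.

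The middle of the cluster Vmn2r29 to Vmn2r52 was nearly empty of values. From 7523651 to 9993556, over 2470 kb that hold the midpoints of 17 genes, 42 windows carried no score and 9 of them a raw level only. Over those 9 the raw level was 1.64, 1.68, 1.72, 1.62, 1.65 and 1.64 in profiles A to F, low like the levels on both sides, 1.69 and 1.69. The score was -0.98 on the lower side and -1.75 on the upper side. In the whole cluster 21 of 71 windows (29.6%) were scored, against 74.6% in Vmn2r111 to Vmn2r117 and 90.9% to 100% in the other clusters with a score.

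Windows without values were long. On the autosomes other than 12 and 19, the 205837 valued windows had a median length of 10037 bp and none exceeded 20 kb, while 1266 of the 1860 windows without a raw value did. Of the 16 unscored Vmn2r genes that lay in a window, 13 lay in one over 20 kb, against 13 of 103 scored genes. Scored genes in such a window, Vmn2r20, Vmn2r22 and Vmn2r126 among them, took their value from a neighbour.

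Unscored genes also had the more similar copies. The share of 31-base stretches of the promoter found in the most similar other member was 84.4% by median over 15 unscored genes (17% to 100%), against 17.4% over 100 scored ones (0% to 100%). At least 50% was shared by 11 of the 15 and by 17 of the 100. All of the 15 except Vmn2r117 and Vmn2r129 lie in the cluster Vmn2r29 to Vmn2r52. The 9 scored genes of that cluster shared 0%, 53.3%, 100%, 100%, 100%, 100%, 71.9%, 34.8% and 18.5% in genome order. The contrast therefore cannot be told apart from one between this cluster and the others. Vmn2r34 and Vmn2r45, whose promoters are identical, were both unscored. Vmn2r32 and Vmn2r49, also identical, took scores from neighbouring windows 29576 and 19077 bp away. The windows at their own midpoints carried no value. The same held for the identical pairs Vmn2r31 and Vmn2r33, and Vmn2r62 and Vmn2r126. The sources used here do not say how reads from such copies were placed. Levels at genes with a near-identical copy are therefore uncertain, and the part of sequence similarity in the missing values was not tested.

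**Figure D4:**
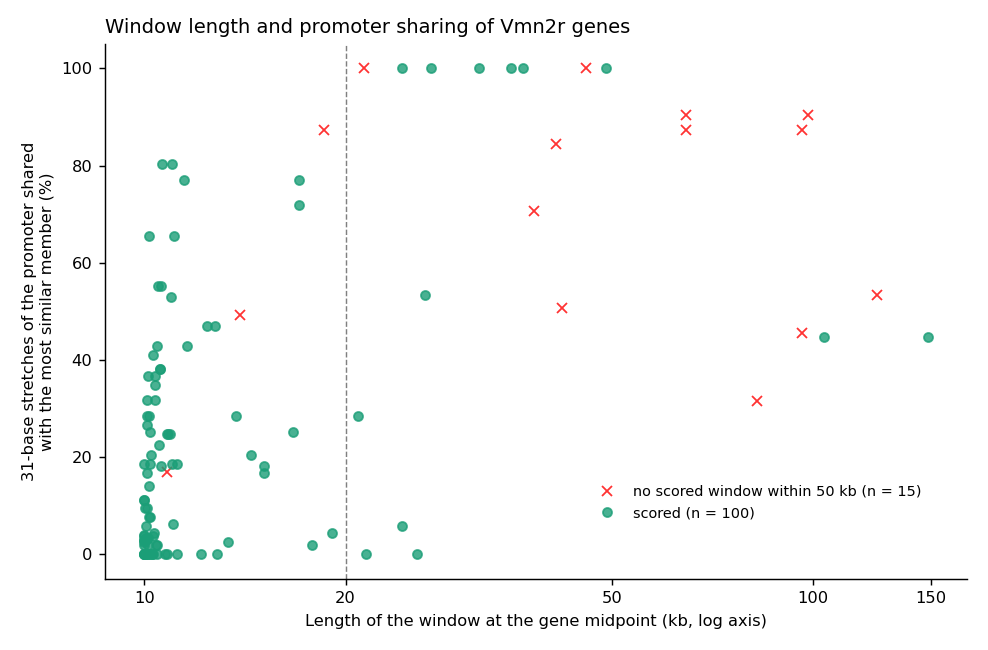
Share of the 31-base promoter stretches found in the most similar other Vmn2r gene (%) against the length of the window at the gene midpoint (kb, log axis) for the 115 genes with a promoter sequence. Crosses are genes with no score and dots scored genes, and the dashed line marks 20 kb, beyond which no window carried a value.

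Vmn2r genes were later than the other genes of each of their chromosomes that gave a score. On chromosome 7 the median was -1.48 over 37 genes, against 0.77 over 1859 others. On chromosome 17 it was -1.09 over 30, against 1.03 over 1001 others. The smallest differences were on chromosome 14, at 0.38 over 2 genes against 0.76, and on chromosome 10, at 0.15 over 8 genes against 0.76. On chromosomes 3, 5 and 6 the medians were -0.56, -0.24 and -0.67, against 0.58, 0.84 and 0.69.

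Other genes inside the clusters had low scores in 4 of 5 spans. Of 43 other protein-coding genes whose midpoints lie in the spans, 41 were scored, with a median of -1.19, and 36 of these had a median below 0. As background, a median of 0.02, that of Vmn2r118, stood at percentile 19.64 of all scored genes. Under 19.64% of all scored genes thus had a median below 0. The 43 include Vmn2r-ps130 at -0.52, in Vmn2r111 to Vmn2r117, a Vmn2r gene that the definition used here leaves out. All 16 scored in Vmn2r65 to Vmn2r79 were below 0, 15 of them Olfr genes, as were the 9 in Vmn2r57 to Vmn2r126 and the 4 in Vmn2r111 to Vmn2r117. The 11 in Vmn2r90 to Vmn2r110 had a median of -0.0091, with Spaca6, Has1, Fpr1, Fpr2 and Fpr3 above 0. The spans also hold 81 of the 128 autosomal Vmn2r pseudogenes.

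Among other chemosensory receptor families, the Vmn2r genes most resembled the olfactory receptors by median score. The 103 Vmn2r genes had a median of -0.70 with 60.2% in the latest 10%, and 1020 scored Olfr genes, the odorant receptors of the main olfactory epithelium, a median of -0.70 with 59.3%. Vmn1r genes, the receptors of the apical vomeronasal layer, had a median of -0.35 over 158 scored of 230 genes, with 102 below 0 in every profile. The bitter taste receptors Tas2r had -1.17 over 35 genes, with 31 below 0 in every profile, where the background was 15.5%. The trace amine receptors Taar had -0.11 over 15. No test of these differences was made, since neighbouring genes share their timing.

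Genes related to Vmn2r receptors by family or by function differed in timing from list to list. Of 18 scored genes for other class C receptors, 13 (72.2%) were above 0 in every profile and 4 (22.2%) below, with a median of 0.40. The background over all genes was 76.2% above and 15.5% below, so these shares lay near it. Tas1r3, a subunit of sweet and umami taste receptors, was early at 1.81, and Grm7, a glutamate receptor, late at -1.5. Of 9 genes of vomeronasal signalling, 7 (77.8%) were above 0 in every profile and 1 (11.1%) below, also near the background. Trpc2, the transduction channel, scored 1.66 and Gnao1, which encodes Gαo, 0.75, while Kcnj3, a potassium channel subunit, scored -1.63. The H2-M genes of class Ib MHC, some of which are expressed with Vmn2r receptors, had a median of 0.56 over 12 genes. The Esp genes, which encode peptide pheromones, were late, with a median of -1.64 and all 15 below 0 in every profile. The 22 Mup genes, which encode urinary protein pheromones, had no member with a score in every profile.

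**Figure D5:**
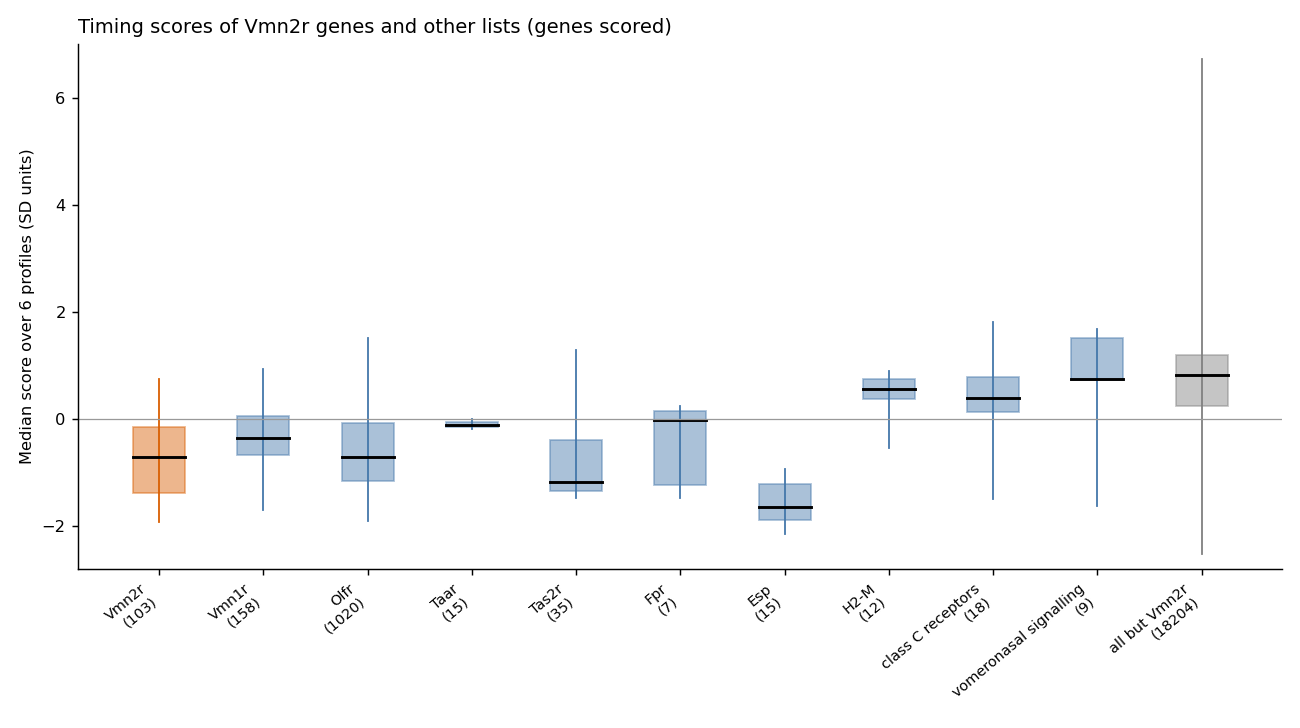
Median timing score over the 6 profiles (SD units) of the Vmn2r genes, of other lists and of all other autosomal protein-coding genes, with the number of scored genes in brackets. Bars are medians, boxes run between the quartiles and lines the full range: the Vmn2r and Olfr medians are both -0.70, against 0.82 for all other genes.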

How the data were processed

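Whole-genome sequencing of 6 samples was processed by the submitters. Genome build mm10 and Picard 2.23.9 come from the submitters' processing notes, and TIGER, which infers timing from depth, from the series title. No source used here says how reads were aligned, windows filtered or profiles smoothed. The authors deposited 2 headerless tables over 237602 windows. The values of the raw table are a normalised DNA copy level (unit other, not counts). The smoothed table holds a timing score, and the deposited score columns have mean 0 and SD 1. No column of values was left unused.

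Genes came from RefSeq (GRCm38.p6) without strand, and promoters from the RefSeq promoter table. Each gene took the window nearest to its midpoint within 50 kb, and was called scored when all 6 profiles had a value. Flanks reached 1 Mb. The raw level was set against a straight line on the score in each profile. Python 3.11.15, numpy 2.4.6 and pandas 2.3.3 were used, and gene placement was tested on simulated data. The limma comparison of genotypes needed the genotype of each column and was not run. Since no column could be tied to a sample, no p-value was computed.

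The members, lists and tests were chosen with earlier results of these data known. The genes named are the highest and lowest of each cluster by median score, lone and unscored genes, Vmn2r1 to Vmn2r7, Vmn2r26 and Vmn2r116. Genes outside that rule were named after their values were seen. The alternatives tried were another gene position, another distance limit, gene bodies, distinct windows, rescaled raw levels, other cluster gaps, all windows of a span, and each profile left out.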

Additional observations from a re-analysis of the deposited data

Results flagged for a closer look

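In 4 of 16 scored clusters 1 profile lay far from the other 5, judged by the gap to its nearest neighbour as a share of the full range over the profiles (limit 0.625 for 6 values). Chance alone gives about 1 in 20 such cases, and the profiles are not known replicates of a group. Profile D was high at Vmn2r120 (ratio 0.822) and at Vmn2r118 (0.67), which lie in the same raised stretch of chromosome 17 and are not independent. Profile C was low at Vmn2r1 to Vmn2r7 (0.68), at -0.70 against -0.50 to -0.40 in the others. Profile E was high at Vmn2r57 to Vmn2r126 (0.682), at -0.86 against -0.97 to -0.94, a small difference in score units.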

How the results depend on the processing

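No paired analysis was possible because no replicate number stands over any column. With each profile left out, the median score, the number of genes below 0 in every profile (78 to 80) and the 16 cluster means stayed within the SD over the profiles. The number of genes with a range of at least 0.5 was 4 without profile D, 4 different genes without profile F and 9 without any other profile. Leaving out profiles for this count was chosen after the data were seen. Below 0 in every profile were 70 of 95 genes over gene bodies, 66 of 88 within 10 kb and 58 of 105 on rescaled raw levels. Unscored genes numbered 34 within 10 kb and 17 in the raw table. The backgrounds of 15.5% and 3.22% given above are for smoothed scores within 50 kb. They were not worked out again for these settings, so these counts cannot be read against them. Clusters numbered 20 at a gap of 500 kb and 15 at 2 Mb. Over all windows of the span the mean was -1.33 for Vmn2r29 to Vmn2r52 and -1.10 for Vmn2r57 to Vmn2r126, and the other 14 clusters moved less than the spread. On rescaled raw levels, which are unsmoothed single windows, the median was -0.57. Cluster means were then 0.26 for Vmn2r8 to Vmn2r17, -0.82 for Vmn2r57 to Vmn2r126, -1.23 for Vmn2r65 to Vmn2r79, 0.63 for Vmn2r80 to Vmn2r83, 0.62 for Vmn2r84 to Vmn2r87, 2.32 for Vmn2r88 to Vmn2r89, -0.62 for Vmn2r90 to Vmn2r110, -0.29 for Vmn2r111 to Vmn2r117, -1.21 for Vmn2r118 and -0.28 for Vmn2r120. Signs turned in 4 of these, Vmn2r8 to Vmn2r17, Vmn2r80 to Vmn2r83, Vmn2r118 and Vmn2r120, of which only Vmn2r120 had scored on 1 side of 0 in every profile. The other 6 clusters moved less than the SD over the profiles, as did 7 named genes, and 22 named genes moved more. Signs also turned for Vmn2r2 (0.62), Vmn2r22 (0.19), Vmn2r90 (-0.15), Vmn2r116 (0.37), Vmn2r126 (-0.46) and Vmn2r53 (-0.05). At the lower coordinate of the gene Vmn2r126 stood at -0.13, Vmn2r53 at -0.0061 and Vmn2r118 at -0.02, and Vmn2r118 at -0.0049 without profile D, E or F. The cause was not tested. The depth of a window is unknown, so the scatter of 0.121 to 0.127 per window is the only measure of precision, and it is close to the rise of the raw level per unit of score.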
